A study of Mus musculus with 150 samples.

Results

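Mouse chromosomes 17 and 18 were followed in single cells of 3 lung tumours as the 358 bins that the deposited tables place on them, out of 5331 bins in all. Chromosome 17 held 183 bins and chromosome 18 held 175, and all of them passed the filter on depth. A bin is a stretch of genome with a median length of 501.4 kb on chromosome 17 and 499.9 kb on chromosome 18. A change of copy number can thus be placed no finer than 1 bin, and its place in a cell can be less exact. The first bin of each chromosome starts at base 3000001 of GRCm38, and the last ends at base 94887271 on chromosome 17 and at base 90602639 on chromosome 18. All bins at these positions are members, whatever their copy number, and the 2 chromosomes were picked with earlier results of these data known.

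The cells came from tumours T1, T7 and T9 of 1 mouse, labelled M3, taken 30 weeks after tumour induction, with 50 cells per tumour. Per the labels, the mice were of a mixed C57BL/6 x Sv129 background with Trp53flox/flox, and carried the reporters Rosa26LSL-tdTomato and Rosa26LSL-Luciferase. In Trp53flox/flox, Cre recombinase removes the gene of the p53 tumour suppressor. Tumours were induced with AdSPC-Cre, an adenovirus whose recombinase is driven by the surfactant protein C promoter of alveolar type 2 cells, or with AdCMV-FlpO, and the labels do not say which was given to this mouse. All 3 tumours share these alleles. The source is given as AT2 cells of lung tissue, an identity that DNA copy number cannot check. Every group was 1 tumour (n = 1), and the tumours are described beside each other with no test, since cells of 1 tumour do not replicate it.

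Mouse chromosomes have their centromere at the low-coordinate end, so the first bins are proximal and the last ones distal. A chromosome that missegregates in mitosis is gained or lost whole, whereas breakage of DNA followed by faulty repair gives a gain or loss of an arm or segment with a step in copy number at the breakpoint. Loss of p53 is known to let cells with such changes go on dividing. Mouse chromosome 17 carries the major histocompatibility complex in its proximal part, and chromosome 18 carries Apc, a brake on WNT signalling, and Smad2 and Smad4, which relay TGF-beta signals.

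Of 150 cells, 145 passed the filters on depth and noise: 47 of T1, 48 of T7 and 50 of T9. Coverage was shallow, with a median depth per base of 0.0363 for T1 cells, 0.0255 for T7 cells and 0.0213 for T9 cells. A bin of chromosomes 17 and 18 held a median of 19077 sequenced bases for T1, 12464.5 for T7 and 11280 for T9. The noise between neighbouring bins of a cell had a median log2 size of 0.191 for T1 cells, 0.146 for T7 cells and 0.133 for T9 cells. Each value below is a log2 ratio relative to the median autosomal bin of the same cell, so that 0 is the typical level of that cell and a doubling of the whole genome would not show. The number of cells and this depth limit the precision, and intervals on shares of cells are exact Clopper-Pearson 95% intervals that cover counting error only. Where no cell was counted, the limit given instead is 3 cells of the total.

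Chromosome 17 of T9 was raised in its distal part. In T9 the distal part, after the middle of the chromosome at base 48943635, lay above the proximal part in all 50 cells. The distal level of T9 had a median of 0.26 (SD 0.15 over 50 cells, lowest -0.02, highest 0.87), against a proximal level of -0.04 (SD 0.15, lowest -0.52, highest 0.26). Taken within each cell, distal minus proximal had a median of 0.37 in T9 (SD 0.15, lowest 0.00, highest 0.74).

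In T1 the distal level was 0.14 (SD 0.17, lowest -0.23, highest 0.36) and the proximal level 0.07 (SD 0.17, lowest -0.29, highest 0.30). The difference in T1 was small beside that of T9, with a median of 0.07 (SD 0.06), and was above 0 in 35 of 47 cells. With the ratio taken from depth in place of the deposited ratio, this T1 difference turned to -0.20. In T7 the distal level was -0.03 (SD 0.06) and the proximal level -0.03 (SD 0.06), and the difference was 0.01 (SD 0.04), above 0 in 31 of 48 cells, and turned to -0.0919 with the ratio taken from depth.

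**Figure D1:**
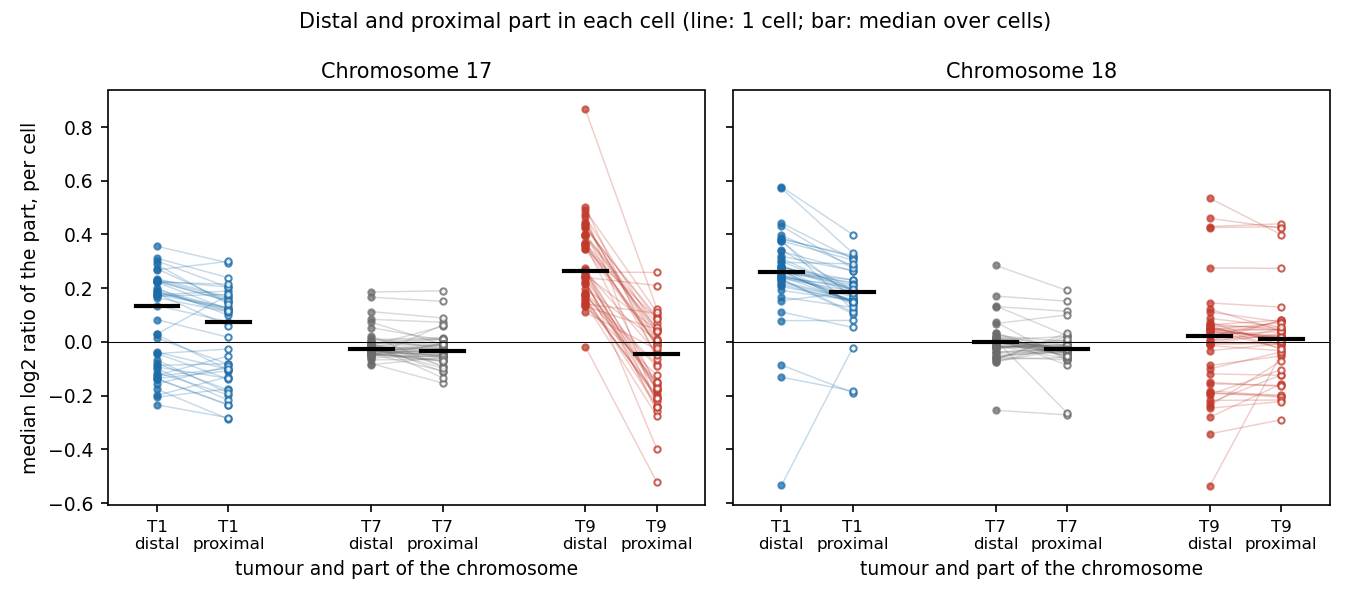
Median log2 ratio of the distal part (filled points) and the proximal part (open points) of chromosomes 17 and 18 in each cell of T1 (n = 47), T7 (n = 48) and T9 (n = 50), with a line joining the parts of 1 cell and a black bar at the median over cells. On chromosome 17 every T9 line falls from left to right, with medians of 0.26 distal and -0.04 proximal, whereas the parts of chromosome 18 lie close together in T9.

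The T9 step fell at 1 place. In 37 of 50 T9 cells the break began exactly with the bin that starts at chromosome 17 base 59285304, and in 43 of 50 cells it lay within 1 bin of it (86%, interval 73.3 to 94.2). Within 3 bins there were steps up in 45 T9 cells (90%, interval 78.2 to 96.7), against 1 of 47 T1 cells (2.13%, interval 0.0539 to 11.3) and none of 48 T7 cells, a count whose limit of 3 cells is 6.25%. With the ratio taken from depth, whose reference holds part of the step itself, the T9 share was 44%. The size of these steps in T9 had a median of 0.44 (SD 0.11, smallest 0.18, largest 0.75). A search for the best single step along the whole chromosome, with no penalty and no minimum length in Mb, put it at the same bin in 38 of 50 T9 cells.

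After this position, chr17:59285304-94887271 held 71 bins over 35.6 Mb, or 38.8% of the bins of the chromosome. Its level in T9 had a median of 0.31 (SD 0.15, lowest 0.06, highest 0.89) and was above 0 in all 50 cells. The 112 bins before it had a median of -0.04 in T9 (SD 0.15, lowest -0.51, highest 0.26). Across the same position the step was 0.43 in T9 (SD 0.15), 0.05 in T1 (SD 0.06) and 0.02 in T7 (SD 0.05). A step of at least 0.2 was present in 45 of 50 T9 cells and in 0 of 47 T1 and 0 of 48 T7 cells, counts whose limits of 3 cells are 6.38% of T1 and 6.25% of T7 cells. As a ratio, the level after this position was 1.35 times that before it in the median T9 cell, 1.03 times in T1 and 1.01 times in T7.

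The step was also present in the raw depth, before the ratio was formed. The log2 of depth after over depth before the position was 0.35 in T9 (SD 0.15), above 0 in 47 of 50 cells, against -0.19 in T1 (SD 0.09) and -0.13 in T7 (SD 0.07), below 0 in all 47 and all 48 cells. Over T9 cells, the size of the step had a Pearson r of 0.38 with median depth (Spearman 0.49, n = 50 cells of 1 tumour). The part of depth in the size of the step was not tested.

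**Figure D2:**
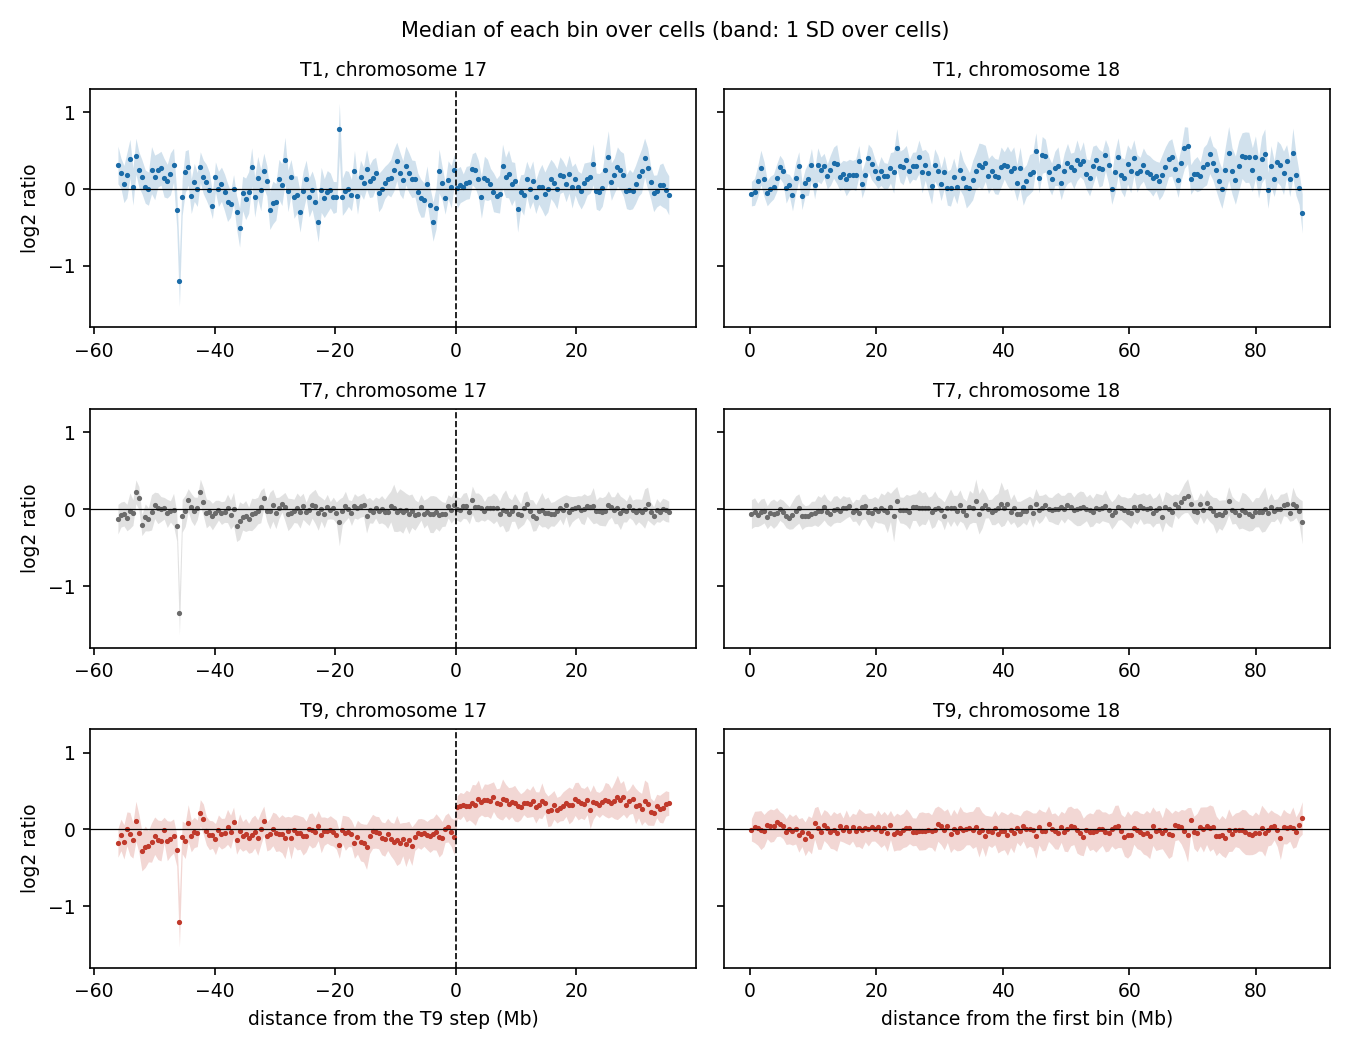
Median log2 ratio of each bin over the cells of a tumour (points) with 1 SD over cells on either side (band), by distance in Mb from the T9 step on chromosome 17 (dashed line) and from the first bin on chromosome 18. In T9 the points lie near -0.04 before the step and near 0.31 after it, whereas T1 and T7 run on across it. Chromosome 18 lies mostly above 0 in T1.

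The T9 cells were not alike in the size of the step. It was at least 0.1 in 48 cells, at least 0.3 in 43 and at least 0.5 in 13. Cell 180109 had no step, with 0.26 after the position and 0.26 before it, so that the whole chromosome was raised. Cell 180120 had 0.14 after and 0.11 before. Cell 180134 had 0.29 after and 0.17 before. At the other end, cell 180124 had 0.89 after and 0.13 before, the highest distal level of all T9 cells. Cell 180116 had 0.51 after and -0.24 before, and cell 180150 had 0.31 after and -0.38 before. Thus cells with steps of like size differed in level on both sides of it. Over T9 cells the distal and the proximal level had a Pearson r of 0.49 (Spearman 0.44), against 0.93 in T1 (Spearman 0.88) and 0.73 in T7 (Spearman 0.48). Without the 2 cells farthest from the median distal level these were 0.38 in T9, 0.92 in T1 and 0.51 in T7. Both parts of a cell share its library and its centre.

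**Figure D3:**
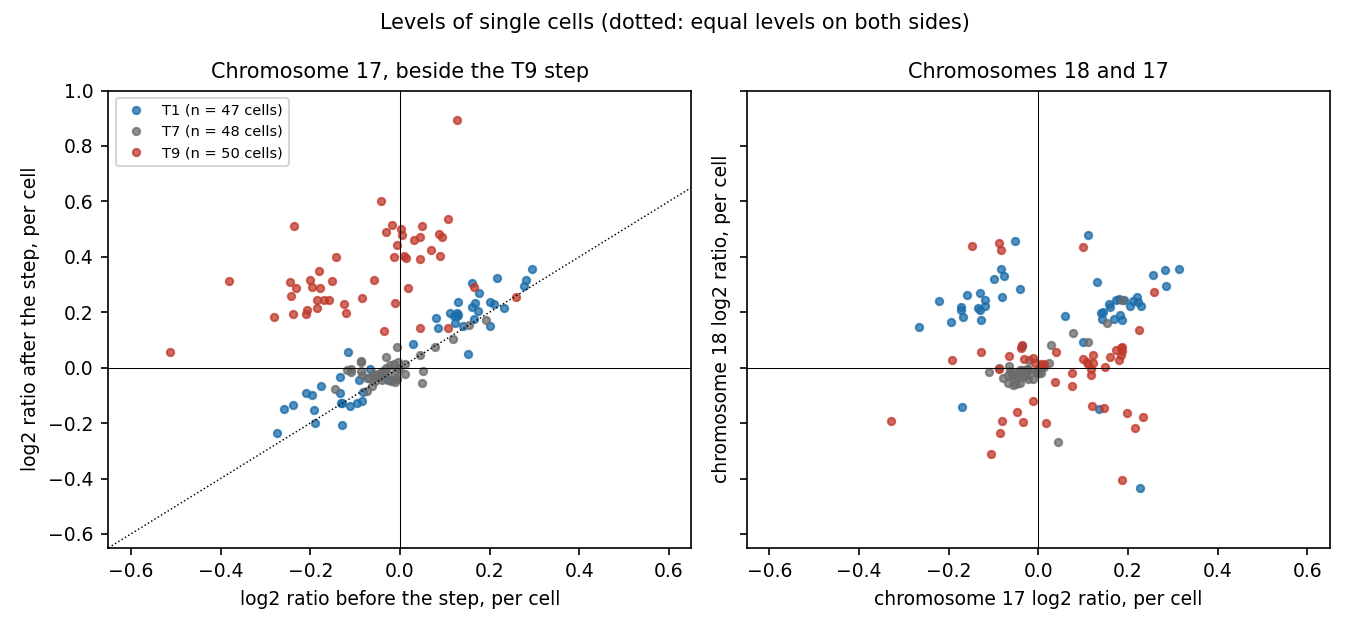
Left, log2 ratio of chromosome 17 after the T9 step against that before it, and right, log2 ratio of chromosome 18 against that of chromosome 17, with 1 point per cell coloured by tumour. In T9, 49 of 50 points lie above the dotted line of equal levels, with a median step of 0.43, and T1 and T7 points lie along it, with median steps of 0.05 and 0.02. On the right, 4 T9 cells lie above 0.4 on chromosome 18, and the T1 points lie on both sides of 0 on chromosome 17.

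The step lies in a stretch poor in genes. The nearest protein-coding gene of RefSeq before it is Nudt12, which encodes a hydrolase of NAD-like nucleotides and ends 271.9 kb away, preceded by Pdzph1 at 293.9 kb. The nearest after it is Efna5, a membrane-bound ligand of Eph receptors, which starts 3318 kb away, followed by Fbxl17, which encodes an F-box protein, and by Fer, a cytoplasmic tyrosine kinase. The part after the step holds 147 protein-coding genes, against 912 before it.

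A segment was called gained from 0.32 upwards, where 2.5 copies would lie relative to 2, and lost from -0.42 downwards, where 1.5 copies would lie. A bin was called in a tumour when 20% or more of the cells carried it in such a segment. In T9, 71 of 183 bins of chromosome 17 were called gained, where 7.07% of all autosomal bins were. They form the run chr17:59285304-94887271 after the step, gained in 24 of 50 T9 cells (48%, interval 33.7 to 62.6), in 0 of 48 T7 cells and, at the bin with the highest count, in 1 of 47 T1 cells. In the median T9 cell the segment mean thus lay close to the threshold, and the share was 22% with a stricter threshold of 0.45 and 72% with a looser one of 0.25. No bin of chromosome 18 was called gained in T9.

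In T1, 25 of 175 bins of chromosome 18 were called gained, where 11.7% of all autosomal bins were, and no bin of chromosome 17. They form chr18:77932880-90602639, the last 12.7 Mb, gained in 10 of 47 T1 cells (21.3%, interval 10.7 to 35.7), 4 of 50 T9 cells (8%, interval 2.22 to 19.2) and 0 of 48 T7 cells. The level of this run in T1 was 0.26 (SD 0.23, lowest -0.52, highest 0.78). Its share lies at the edge of the 20% rule, and no bin was called in T1 with the stricter threshold, the stricter cell filter or the doubled penalty on breaks. In T7 no bin of either chromosome was called gained, where 13.6% of autosomal bins were. No bin was called lost in any tumour, where 20.1% of autosomal bins were in T1, 2.52% in T7 and 4.2% in T9.

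Genes of the fixed lists that lie on these chromosomes were given the mean of the segment that holds them. Of 85 genes, 80 lie on chromosome 17 or 18, 46 and 34 of them, and 20 were called. Of these, 16 lie after the T9 step and 4 in the last run of chromosome 18 in T1. Genes of 1 segment share its value, so these are 2 measurements and not 20. In T9 the 16 genes had levels of 0.31 to 0.32.

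Growth and signalling genes were called in 10 of 28 cases, 8 in T9 and 2 in T1. For each list the count stands beside 71 of the 358 bins of both chromosomes called in T9 and 25 of 358 in T1. In 24 of 50 T9 cells the gained segment held Alk, a receptor tyrosine kinase, Birc6, an inhibitor of apoptosis, Ltbp1, which stores latent TGF-beta in the matrix, Sos1, the exchange factor that loads RAS with GTP, and Map4k3, a kinase upstream of JNK. In 23 of 50 it held Eml4, a microtubule-binding protein and the common fusion partner of ALK in human lung cancer, Prkce, a protein kinase C, and Epas1, the hypoxia-inducible factor 2 alpha. Alk and Eml4 lay in the same gained run here, and no join between them can be read from bins of this size. In T1 the segment that held Setbp1, which encodes a SET-binding nuclear protein, and Nfatc1, a calcium-regulated transcription factor, was gained in 10 of 47 cells, at 0.24 (SD 0.22). Notch3 and Pim1, a receptor and a kinase in the proximal part of chromosome 17, were at -0.04 in T9 and 0.01 in T1. Vav1, another exchange factor and the last of this list before the step, was at -0.07 in T9, 0.10 in T1 and -0.03 in T7.

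Genes of tumour suppression and apoptosis were called in 4 of 23 cases, 3 in T9 and 1 in T1. Among them Msh6, a DNA mismatch repair protein, was gained in 23 of 50 T9 cells, and Tgif1, a repressor of TGF-beta responses, in 24. Socs6, a suppressor of cytokine signalling, was gained in 10 of 47 T1 cells. Apc was at 0.22 in T1, gained in 6 of 47 cells and lost in 1, and at 0.01 in T9, gained in 4 of 50 cells and lost in 1. Smad4 was at 0.23 in T1, with 6 gains and 1 loss in 47 cells, and at 0.01 in T9. Cdkn1a, the cell cycle inhibitor p21, was at 0.01 in T1, -0.04 in T7 and -0.04 in T9. None of these fell below the threshold of loss in 20% of the cells of any tumour.

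Among genes of epithelial and mesenchymal state, 4 of 12 were called, all in T9. Twsg1, a modulator of BMP signals, Ptprm, an adhesive receptor phosphatase, and Tgif1 were gained in 24 cells, and Epcam, an adhesion molecule of epithelia, in 23. Crb3, a polarity protein and the last of the list before the step, was at -0.07 in T9. Zeb1, Gata6 and Cdh2, a repressor of epithelial genes, a lung transcription factor and N-cadherin on chromosome 18, were at 0.01 in T9 and at 0.19 for Zeb1 and Gata6 and 0.21 for Cdh2 in T1. Genes of mitosis and cohesion were called in 3 of 7 cases, Ndc80, a kinetochore subunit, and Smchd1, a chromosome-structure protein, in 24 T9 cells, and Rttn, a centriole protein, in 10 T1 cells. Of the 11 genes of antigen presentation, all on the proximal part of chromosome 17, none was called. H2-K1, a class I heavy chain, Tap1, a peptide transporter, and H2-Ab1, a class II chain, all had 0.01 in T1, -0.04 in T7 and -0.04 in T9, with a loss in 2 of 50 T9 cells. Without the aberrant bins described below, fewer T9 cells than these 2 had a loss call anywhere on chromosome 17.

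Taken as whole chromosomes, chromosome 17 had median levels of 0.11 for T1, -0.03 for T7 and 0.08 for T9. With each cell centred on its commonest level instead of its median, T1 was at -0.02. The T1 cells were spread over both sides of 0, with 26 cells above and 21 below (SD 0.17, lowest -0.27, highest 0.31). In order of level the T1 cells left a gap of 0.096, with the nearest cells at -0.036 and 0.061. In T7 the cells were close together (SD 0.06, lowest -0.11, highest 0.19), 44 of 48 of them within 0.1 of 0. None of the whole-chromosome levels of chromosome 17 reached either threshold in any tumour.

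Chromosome 18 was raised relative to the median autosomal bin in T1. Its level there had a median of 0.22 (SD 0.15, lowest -0.43, highest 0.48), and 44 of 47 cells lay above 0. The 3 others lay at -0.43, -0.15 and -0.14. With each cell centred on its commonest level the median was 0.13. The level was shared with other autosomes of T1, as chromosomes 12, 8, 5 and 3 lay at 0.19, 0.19, 0.18 and 0.18. Chromosome 6 was higher, at 0.39, and chromosomes 7, 10, 11 and 15 lay at -0.19, -0.18, -0.19 and -0.18. Cell 180025 was the lowest, with -0.53 in the distal part and -0.02 in the proximal part. In T7 the level was -0.02 (SD 0.07, lowest -0.27, highest 0.24), with 44 of 48 cells within 0.1 of 0. In T9 it was 0.02 (SD 0.18, lowest -0.41, highest 0.45), and 30 of 50 cells lay within 0.1 of 0. In T9, 4 cells had a whole chromosome 18 gained, at 0.43, 0.44, 0.44 and 0.45, and the next cell, 180109, lay at 0.27. At the low end 14 T9 cells lay at or below -0.1, none of them past the threshold of loss over the whole chromosome.

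On chromosome 18 the levels of the distal and proximal parts were close to each other. The middle of its bins is at base 46801319. Distal and proximal levels were 0.26 (SD 0.17) and 0.19 (SD 0.11) in T1, -0.00 (SD 0.08) and -0.03 (SD 0.07) in T7, and 0.02 (SD 0.20) and 0.01 (SD 0.16) in T9. Distal minus proximal was 0.07 in T1 (SD 0.11), above 0 in 44 of 47 cells, 0.02 in T7 (SD 0.06), above 0 in 29 of 48, and 0.003 in T9 (SD 0.09), above 0 in 27 of 50. The Pearson r of the distal with the proximal level was 0.81 in T1 (Spearman 0.76, n = 47), 0.67 in T7 (Spearman 0.10, n = 48) and 0.90 in T9 (Spearman 0.85, n = 50). Without the 2 cells farthest from the median distal level r was 0.85 for T1, 0.38 for T7 and 0.96 for T9, so the relation in T7 rested in part on those cells. In windows of 10 Mb, chromosome 18 of T1 was lowest before 10 Mb, at 0.09 (SD 0.11), and highest from 80 Mb on, at 0.29 (SD 0.22). On chromosome 17, T9 was at -0.06 (SD 0.15) between 50 and 60 Mb and at 0.35 (SD 0.16) between 60 and 70 Mb.

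Breaks were found by dividing each chromosome of each cell into segments of at least 10 Mb, so that none could lie within 10 Mb of an end. Chromosome 17 had at least 1 break in 27 of 47 T1 cells (57.4%, interval 42.2 to 71.7), 23 of 48 T7 cells (47.9%, interval 33.3 to 62.8) and 49 of 50 T9 cells (98%, interval 89.4 to 99.9). Chromosome 18 had one in 24 of 47 T1 cells (51.1%, interval 36.1 to 65.9), 14 of 48 T7 cells (29.2%, interval 16.95 to 44.1) and 7 of 50 T9 cells (14%, interval 5.82 to 26.7). Over all pairs of cell and autosome a break was found in 71.2% for T1, 40.6% for T7 and 62% for T9. These shares pool autosomes of unlike length, from 192.4 Mb for chromosome 1 to 58.3 Mb for chromosome 19, with 87.6 Mb for chromosome 18. Chromosome 17 of T9 thus lay above the share of its tumour, and chromosome 18 of T9 and of T1 below it. Among the 19 autosomes of T9, chromosome 17 ranked 5, level with chromosome 11 at 98%. Chromosomes 2, 6, 9 and 14 of T9 had 100%. The intervals of chromosome 17 in T1 and T7 and of chromosome 18 in T7 held the share of their tumour. In T7, chromosome 17 lay above that share only with the aberrant bins described below. The shares of cells with a break on chromosomes 17 and 18 depended on the setting. With a penalty of 6 in place of 3 they were 17.02% for T1 and 6.25% for T7 on chromosome 17 and 12.8% for T1 and 4.17% for T7 on chromosome 18. With a penalty of 2, chromosome 17 of T1 had 89.4%, and chromosome 18 had 76.6% in T1 and 36% in T9. With the ratio from depth, 95.8% of T7 cells and all T1 and T9 cells had a break on chromosome 17, and 56% of T9 cells had one on chromosome 18. The shares of the tumours over all autosomes were not recomputed under these settings. Breaks per cell on chromosome 17 were 0.957 for T1, 0.667 for T7 and 1.92 for T9, and on chromosome 18 0.617, 0.333 and 0.14 in the same tumours. In T9, chromosomes 4 and 9 had more breaks per cell than chromosome 17, at 2.68 and 2.18. In T9, 31 of 50 cells had 2 breaks on chromosome 17, 10 had 1, 8 had 3, and 1 had none. Of the 96 breaks of T9 there, 30 lay between 10 and 20 Mb, in the window of an aberrant bin described below. Breaks per cell were not recomputed without that bin.

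The other breaks gathered at a few places. Between 10 and 20 Mb of chromosome 17 lay breaks of 19 T1 cells, 17 T7 cells and 30 T9 cells. They went down in 17 of 19 cases in T1, with a median step of -0.26. They went up in all 30 cases in T9, with 0.20, and in 13 of 17 in T7, with 0.14. In T1 the 10 Mb windows from 20 and from 30 Mb lay at -0.06 (SD 0.18) and -0.02 (SD 0.19). The windows beside them, from 10 and from 40 Mb, lay at 0.12 (SD 0.17) and 0.11 (SD 0.17). The lower windows list a mean of 16.3 and 16.85 genes per bin, against 5.55 and 7.95. The part of gene number in these levels was not tested. The first place where a segment of 10 Mb can end is base 13305954, where 14 of the T1 breaks, 4 of the T7 breaks and none of the T9 breaks began, and the commonest start in T9 was base 14657485, in 12 cells. The bin at the first of these places, chr17:13305954-13591612, was aberrant. That bin is shorter than the rest, at 285.7 kb, has the lowest weight of both chromosomes in the deposited table, at 0.460, and lay far below its surroundings in all tumours, at -1.20 in T1 (SD 0.32), -1.35 in T7 (SD 0.28) and -1.20 in T9 (SD 0.32). The bin was below 0 in all 145 cells. A loss on chromosome 17 was called in 8 of 50 T9 cells (16%, interval 7.17 to 29.1), over a median of 12.5% of the chromosome, and in 1 of 50 when this bin and the next one described were left out. Without them, breaks on chromosome 17 were found in 20.8% of T7 cells, against 47.9% with them and 40.6% over all autosomes of T7 with them. The T1 share stayed within its counting interval of 42.2 to 71.7 without them.

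Between 30 and 40 Mb lay breaks of 15 T1 cells, all up, with a median step of 0.18 (SD 0.08), and 10 of them began with the bin chr17:39729293-40230728. In T1 this single bin stood at 0.77 (SD 0.34, lowest 0.03, highest 1.40) and at or above 0.5 in 34 of 47 cells. In T7 it stood at -0.17 (SD 0.30) with 4 of 48 cells at or above 0.5, and in T9 at -0.20 (SD 0.17) with 0 of 50. The genes that the tables list there include Gm26917, Gm42418 and AY036118, a place known to hold sequence of the ribosomal RNA repeat. The part of such repeats in its level was not tested. Over both chromosomes 3 of 358 bins (0.838%) departed from the running median of their surroundings by 0.5 or more in a tumour, against 51 of all 4806 autosomal bins (1.06%). The third is the last bin of chromosome 18, chr18:90109601-90602639, at -0.32 in T1 (SD 0.26), -0.17 in T7 (SD 0.28) and 0.15 in T9 (SD 0.21).

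Smaller groups of breaks on chromosome 17 lay between 20 and 30 Mb in 5 T9 cells, 4 of them down, and between 40 and 50 Mb in 7 T7 cells, 4 of them down, and in 5 T9 cells, 4 of them down. On chromosome 18 the only window with breaks in 10% or more of the cells of a tumour was 10 to 20 Mb, with 16 T1 cells and 6 T7 cells, all up, by a median of 0.20 (SD 0.03) in T1 and 0.17 (SD 0.01) in T7. Of those in T1, 11 began at base 13497202, again the first place that the minimum length allows. In T9 the 7 breaks on chromosome 18 lay in 7 cells and at scattered places, 6 of them down.

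**Figure D4:**
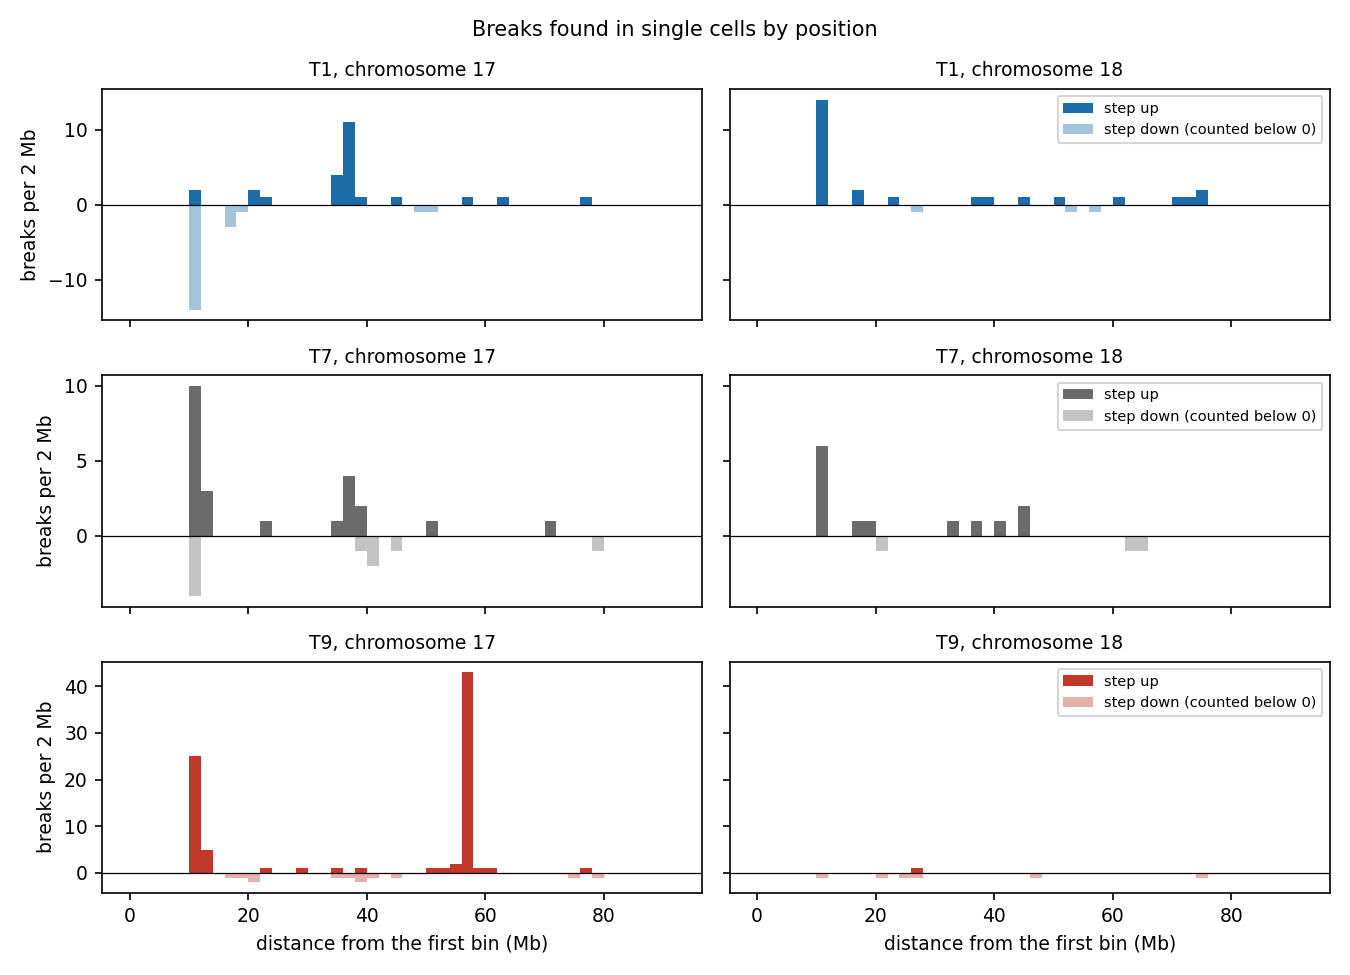
Number of breaks found per 2 Mb along chromosomes 17 and 18 in T1, T7 and T9, by distance in Mb from the first bin, with steps up drawn above 0 and steps down below it. The tall bar on chromosome 17 of T9 holds the shared step, and bars just past 10 Mb stand at and after the first place where the minimum segment length allows a break.

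Set against the other 17 autosomes of the same tumour, the spread of chromosome 17 over cells, an SD of 0.170 in T1, ranked 5 of 19, where the others had a median of 0.123 and a highest value of 0.308. It was 0.056 in T7, where the others had a median of 0.083, and 0.128 in T9, where they had 0.131. The SD of chromosome 18 was 0.147 for T1, 0.068 for T7 and 0.179 for T9, the second highest of 19 in T9, where the other autosomes ranged over 0.073 to 0.197. In median distal minus proximal level, chromosome 17 of T9 was the second highest of 19 at 0.37, where the other autosomes ran from -0.99 to 0.38 with a median size of 0.01. In level, chromosome 17 was the second highest of 19 in T9 and chromosome 18 the second highest in T1, where chromosome 12 was next at 0.19. Within a T9 cell, the bins of chromosome 17 had a median SD of 0.283, against 0.146 for chromosome 18. The other 17 autosomes had a median of 0.166, with chromosome 9 higher than chromosome 17, at 0.565, and chromosome 11 close to it, at 0.282.

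**Figure D5:**
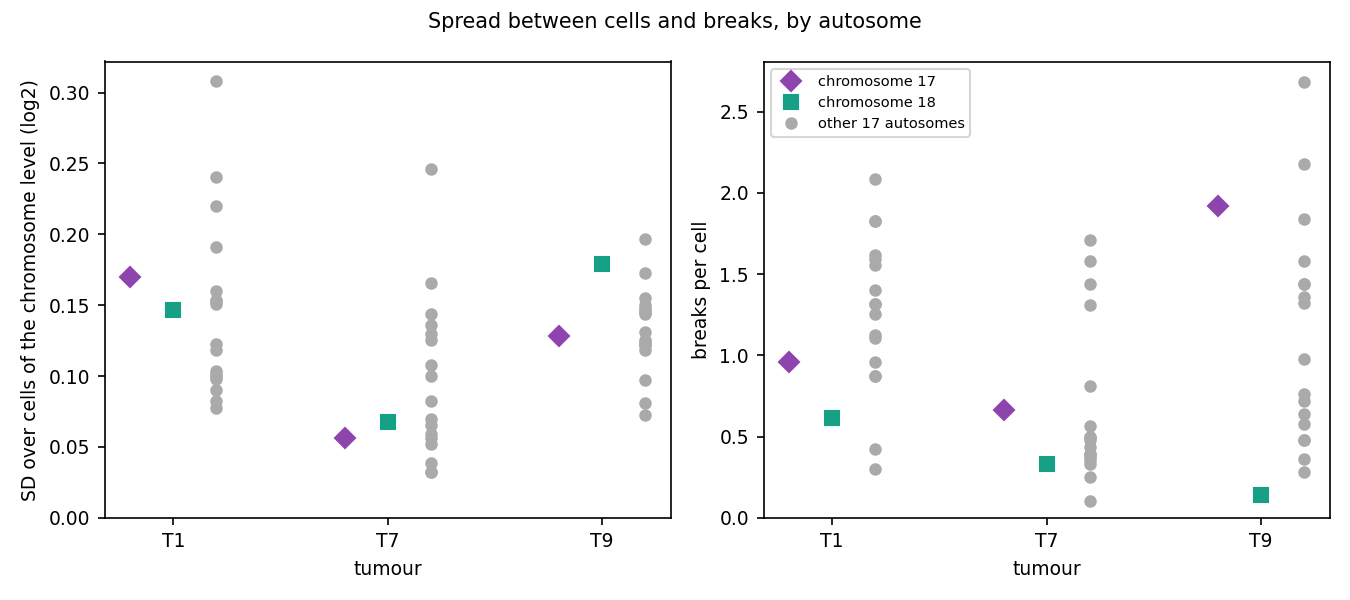
SD over cells of the level of each autosome (left) and breaks per cell (right) in T1, T7 and T9, with chromosome 17 (diamond) and chromosome 18 (square) beside the other 17 autosomes (circles). In T9 chromosome 18 is second highest in spread, at 0.179, and lowest in breaks, at 0.14 per cell. Chromosome 17 had 1.92 breaks per cell, below chromosomes 4 and 9 at 2.68 and 2.18. Of these T9 breaks on chromosome 17, 30 of 96 lay between 10 and 20 Mb, where an aberrant bin lies.

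The levels of the 2 chromosomes were compared over the cells of a tumour. The Pearson r of chromosome 17 with chromosome 18 was 0.01 in T1 (Spearman 0.21, n = 47), 0.62 in T7 (Spearman 0.44, n = 48) and -0.03 in T9 (Spearman 0.04, n = 50). In T7 the same 4 cells, 180071, 180085, 180087 and 180090, were the highest on both chromosomes, and r was 0.27 without the 2 cells farthest from the median of chromosome 17. Levels of 1 cell share its library and its centre. In calls, 24 of 50 T9 cells had a gain on chromosome 17 and 4 a gain on chromosome 18, and 1 cell had both, while 3 of the 4 had a loss call on chromosome 17, a call made in 1 T9 cell in all without the aberrant bins described above. No call on either chromosome was made in 32 of 47 T1 cells (68.1%, interval 52.9 to 80.9), 45 of 48 T7 cells (93.8%, interval 82.8 to 98.7) and 19 of 50 T9 cells (38%, interval 24.7 to 52.8).

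The number of genes listed for a bin varied from 0 to 56 on chromosome 17 and from 0 to 43 on chromosome 18. Over the bins of chromosome 17, the Spearman correlation of the median level with the number of genes was -0.23 for T1, -0.07 for T7 and -0.25 for T9 (n = 183 bins). Over those of chromosome 18 it was -0.26 for T1, -0.08 for T7 and -0.05 for T9 (n = 175). In T9 it was 0.20 before the step (n = 112) and 0.46 after it (n = 71), so the negative value over the whole chromosome did not hold on either side. Neighbouring bins share segments and base composition, and the base composition of the bins was not analysed here.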

How the data were processed

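DNA of single cells was sequenced. The submitters' processing notes name BWA 0.7.17 and the build GRCm38. The deposited tables give, for each bin and cell, a coverage signal (depth per base), a log2 ratio and a weight, a score that is the same in all cells. The sources used here do not say how the authors made the log2 ratio and the score, or how cells were amplified. Starts in the files count from 0 and are given here from 1.

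Bins were kept with depth in at least 80% of cells, and cells with noise (scaled median absolute difference of neighbouring autosomal bins) of at most 0.267, the median plus 3 scaled deviations. The median of the 4806 bins on the 19 autosomes was subtracted in each cell. Levels are medians over bins, and proximal and distal parts meet at the middle of the span. Segments of at least 5 bins and 10 Mb came from optimal partitioning by least squares, in which each break cost 3 ln n times the noise variance (n bins). The search was tried on simulated data, in which departures of bins from their segment were shuffled and steps were planted away from the ends. That trial does not cover breaks beside aberrant bins or at the first place that the minimum length allows. Named regions and break windows are those in at least 20% and 10% of a tumour's cells. Gene positions came from RefSeq, GRCm38.p6. The T9 step is the commonest T9 break start and, like the bins singled out, was chosen after values were seen. Members, lists and alternatives were chosen with earlier results of these data known. No pair of cells had identical columns. Results on 1 further engineered allele and some listed genes are not reported here. Computations ran under Python 3.11.15 using scipy 1.17.1, pandas 2.3.3, matplotlib 3.10.9, numba 0.67.0 and numpy 2.4.6.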

Additional observations from a re-analysis of the deposited data

How the results depend on the processing

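Of 352 recomputed summaries under 14 other settings, 306 stayed within the spread between cells, the counting interval or 1.5 times the main count, and 1 reversed. The T9 step across chromosome 17 stayed within its SD in all 8 settings that apply to it, between 0.33 and 0.43. Centring on the commonest level or on the other 17 autosomes could not move it, since a difference within a cell keeps its value under any centre. Nor could lifting the noise filter, which had left out 0 T9 cells. Under these centrings every distal minus proximal value and share of cells with a break was likewise fixed. Part of the 306 was thus fixed in advance. A ratio was rebuilt from depth. By construction it subtracts a reference that holds part of each tumour's own changes, the T9 step included. It reversed distal minus proximal of T1 chromosome 17 to -0.20 and gave -0.0919 in T7. Its step was -0.21 in T1 and -0.12 in T7, its T7 levels -0.10 on both chromosomes, and its shares of cells with a break 100% (T1), 95.8% (T7) and 100% (T9) on chromosome 17 and 66.0% (T1) and 56% (T9) on chromosome 18. It gave 75 called bins and 25.5% of cells called on both chromosomes in T1, and in T9 a gain after the step in 26% and a break there in 44%. A penalty of 6 gave breaks in 17.02% (T1) and 6.25% (T7) of cells on chromosome 17 and 12.8% and 4.17% on chromosome 18, and one of 2 gave 89.4% (T1), 64.6% (T7) and 100% (T9) on chromosome 17 and 76.6% (T1) and 36% (T9) on chromosome 18. Segments of 5 Mb gave 72.3% on chromosome 17 and 13 called bins in T1. T1 had 0 called bins and 0% of cells called on both chromosomes with the stricter cell filter, the penalty of 6 or stricter thresholds, and 174 bins and 23.4% with looser ones. Stricter thresholds gave 22% of T9 cells gained after the step, 0% called on both and 2% with a loss on chromosome 17, and looser ones 72% gained, 32% with a loss, and 40.4% of T1 cells gained at the end of chromosome 18. Without the noise filter the T7 SD was 0.195 on chromosome 17 and 0.237 on chromosome 18. With bins alike in all tumours left out, T7 had breaks on chromosome 17 in 18.8% of cells and T9 a loss in 2%, and with only the 2 aberrant bins left out, an alternative chosen after seeing the data, 20.8% and 2%. Causes other than by construction were not tested. No paired analysis was possible because no result comes from a test and cells carry no number shared between tumours. Depth limits breaks and calls of small steps, and no setting can place a break finer than 1 bin.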
